A study of Mus musculus with 4 samples.

Results

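The genes described here encode histone variants, proteins that take the place of a standard histone in the nucleosome or on its linker DNA. They are H3f3a and H3f3b, which encode H3.3, H2afz and H2afv, which encode the H2A.Z proteins, H2afx, which encodes H2A.X, H2afy and H2afy2, which encode macroH2A proteins, H1f0 and H1fx, which encode linker histones, and Cenpa, which encodes the centromeric H3 variant CENP-A. The genes were chosen by symbol, with earlier results of these data known, and all 10 were found among the 24421 genes counted. The data are gene counts from 4 Illumina TruSeq libraries of R1 mouse embryonic stem cells (ESCs), an established line, with 2 libraries of the state Undiff and 2 of the state Day4. Undiff cells were kept with leukaemia inhibitory factor, while Day4 cells were grown as embryoid bodies for 4 days without that factor and then for 4 days with retinoic acid (RA) at 2 µM. In the sample labels the dose is 2 mM, and the tissue of all 4 libraries is embryoid bodies. The 2 replicates of each state were grown and treated apart. The comparison of Day4 with Undiff asks how differentiation changed the RNA of these genes, and in it the loss of the factor, the embryoid body culture and RA cannot be told apart.

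Most core histones are made in S phase from clustered genes whose mRNAs end in a stem-loop and not in a poly(A) tail, and they are laid down behind the replication fork. Variant genes of the kind described here mostly lie outside those clusters, carry polyadenylated mRNAs and are expressed through the cell cycle or in cells that have stopped dividing. Each variant has its own chaperones or exchange complexes, and swapping a variant into a nucleosome changes what the nucleosome binds and how stable it is. In ESCs, H3.3 and H2A.Z are known at promoters and enhancers, macroH2A at silent chromatin and H1.0 as a linker histone of differentiated cells.

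The libraries held from 32099074 to 47730944 counts on genes. The summed level of 11 pluripotency markers was 4852 and 4868 in Undiff, in counts scaled to a common library total (CPM), and 68.1 and 64.5 CPM in Day4, and 10 of the 11 fell, while Tbx3 rose. In Day4, 7 of 9 fibroblast markers, 6 of 7 endoderm markers and 3 of 4 endothelial markers rose. The others of these lists fell, with log2 fold changes of -3.80 for Thy1 and -4.03 for S100a4 (fibroblast), -4.72 for Amn (endoderm) and -1.19 for Pecam1 (endothelial). Of the other fixed markers, 2 of 7 neural and 3 of 6 cardiac and smooth muscle markers rose, and 3 and 1 fell. By the thresholds given below, 22.2% of all genes tested were higher and 20.6% lower in Day4. The share of fragments assigned to no gene was 12.1% and 13.2% in Undiff and 7.50% and 7.74% in Day4, and its part in the results was not tested.

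Of the 10 histone variant genes, 7 rose, none fell past the fold minimum, and 1 did not pass the test. To be called differentially expressed (a DEG), a gene needed an adjusted p-value no higher than 0.05, a log2 fold change of 1 or more in either direction and 5 or more normalized counts on average. By these thresholds 42.8% of the 19891 genes tested were DEGs, 22.2% higher and 20.6% lower in Day4, beside 7 and 0 of the 10 variant genes. With DESeq2 in place of edgeR, 8114 genes were DEGs by the same thresholds. Of the 10 variant genes, 6 were then higher and 0 lower, with H2afv no longer called. The adjusted p-value alone was passed by 75.6% of genes and by 9 of the 10 variant genes, of which H2afz and Cenpa were lower by less than the fold minimum. All 10 passed the minimum count, and among the 16472 genes that did so, 26.8% were called higher and 24.9% lower. The median log2 fold change was 1.06 over the 10 variant genes and 0.03 over those 16472 genes. In bulk RNA, a change in the cells of a type and a change in the RNA per cell cannot be told apart.

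**Figure D1:**
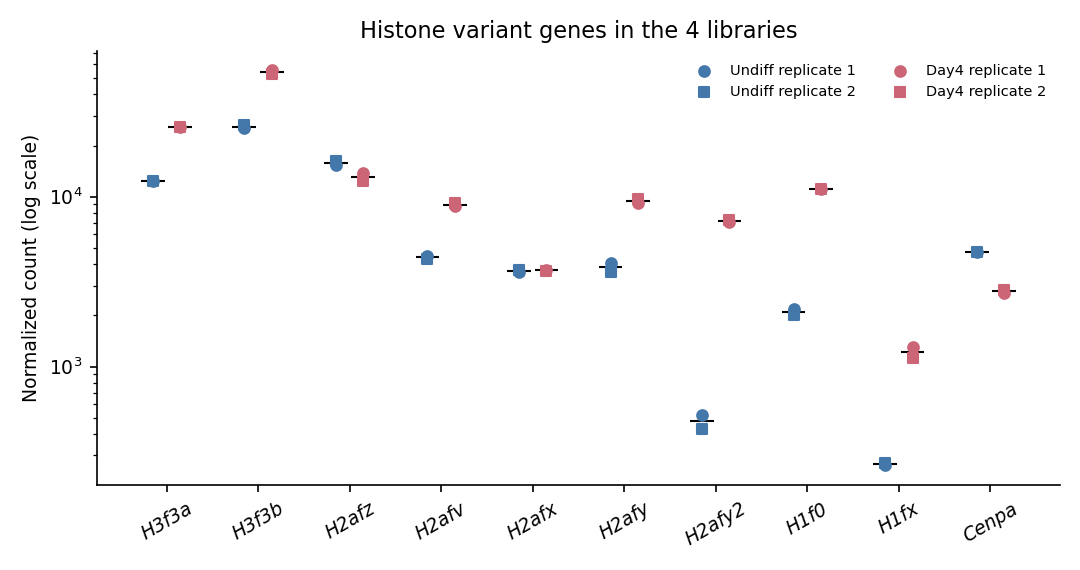
Normalized counts (counts scaled to a common library size, log axis) of the 10 histone variant genes in each library, with Undiff in blue, Day4 in red, circles for replicate 1, squares for replicate 2 and a line at the mean of each state. The states are apart for 9 genes and overlap for H2afx, and the share of all genes that lie apart was not computed.

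**Figure D2:**
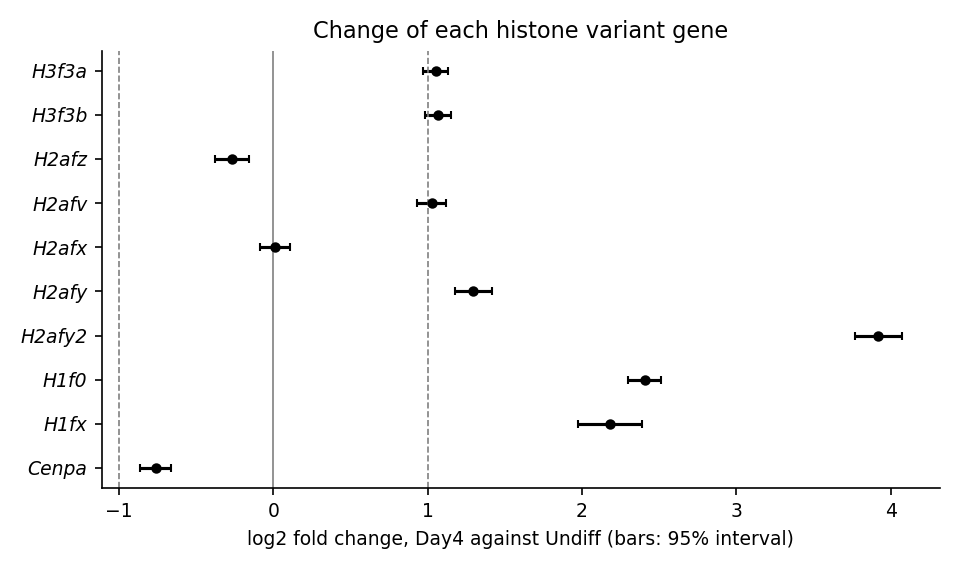
log2 fold change of Day4 against Undiff for each histone variant gene, with the 95% interval of the edgeR fit as bars and dashed lines at the fold minimum of 1 in either direction. H2afy2 lies at 3.92, H1f0 and H1fx above 2, H3f3a, H3f3b and H2afv close to 1, and H2afz and Cenpa below 0.

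Both H3.3 genes rose, each by little more than the fold minimum. H3f3a and H3f3b encode the same protein of 136 residues, so a cell can draw on either for H3.3, the H3 form that is put into chromatin outside replication. Their coding sequences, of 408 bases, differ at 95 positions and share no run longer than 23 bases, so that fragments from the coding part can be assigned to either gene. The beginnings of the coding sequences, from GENCODE transcripts, are shown because they carry this difference in bases with no difference in protein, and capitals mark the 13 bases that differ among the 60 shown.
H3f3a: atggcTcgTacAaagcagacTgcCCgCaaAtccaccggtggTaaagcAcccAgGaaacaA
H3f3b: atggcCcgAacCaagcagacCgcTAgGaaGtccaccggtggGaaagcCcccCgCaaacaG

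H3f3a, on chromosome 1 (180800832 to 180813943, minus strand, GRCm38), had 12364 and 12419 normalized counts in Undiff and 25689 and 25700 in Day4. H3f3b, on chromosome 11 (116021912 to 116027962, minus strand), had 25228 and 26347 in Undiff and 55290 and 52663 in Day4. Both genes were higher in each Day4 library than in either Undiff library. The log2 fold change was 1.05 ± 0.04 (standard error, SE) for H3f3a, with an adjusted p of 1.07e-11 in edgeR's quasi-likelihood test, and 1.07 ± 0.04 for H3f3b, with an adjusted p of 1.85e-11. Both lie close to the fold minimum, and their 95% intervals, from 0.97 to 1.13 and from 0.98 to 1.15, include it. The pair together rose from 996 ± 18.2 (SD, n = 2) to 2178 ± 56.0 CPM, a 2.19-fold change. This change was 2.09-fold after scaling by the trimmed mean of M-values (TMM), the scaling of the normalized counts. H3f3b made up 67.1% and 68.0% of the pair's counts in Undiff and 68.3% and 67.2% in Day4, so the states overlapped in the split between the genes. The difference in this share was 0.203 percentage points (two-sided exact permutation test, p = 0.667), where 0.333 is the smallest p that 2 against 2 libraries can give.

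**Figure D3:**
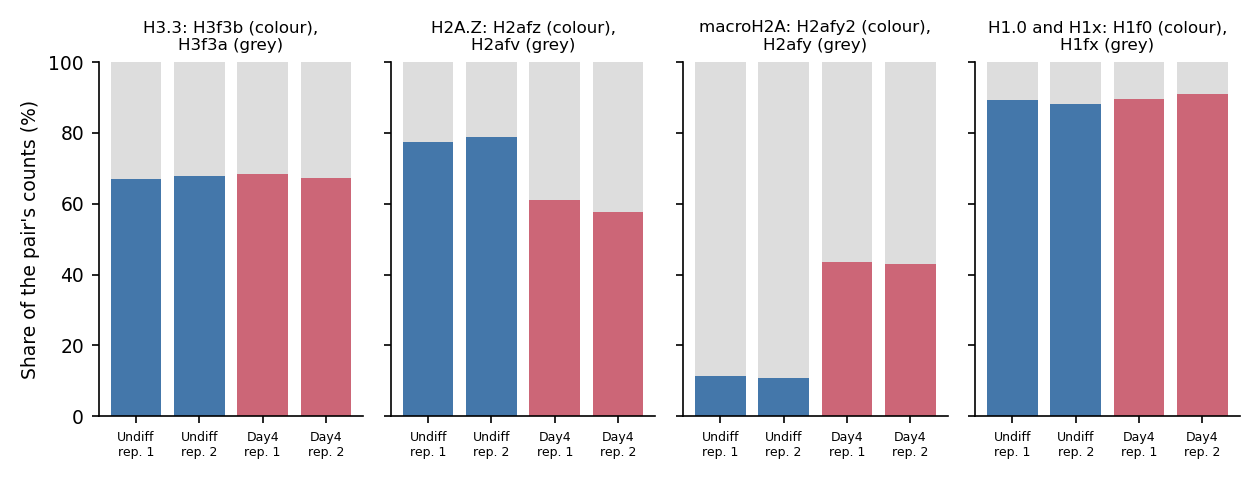
Share (%) of each gene in the summed counts of its pair in each library, with the gene named first in colour (blue Undiff, red Day4) and its partner in grey. H3f3b stays between 67.1% and 68.3%, H2afz drops from above 77% to 61.1% and 57.6%, H2afy2 climbs from 11.3% and 10.7% to 43.6% and 43.1%, and H1f0 stays between 88.2% and 90.9%.

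Of the 7 H3.3 chaperone genes fixed as a list, 1 rose and 0 fell past the fold minimum, 5 passed the adjusted p-value alone, and the median log2 fold change was -0.20. Over all genes tested, 22.2% were called higher and 20.6% lower, and 75.6% passed the adjusted p-value at any fold change. The HIRA complex places H3.3 at genes, and its subunit gene Ubn1 rose by a log2 fold change of 1.29 ± 0.05 (edgeR, adjusted p = 2.16e-11). Hira itself was at -0.20. The ATRX and DAXX proteins place H3.3 at telomeres and repeats, and Atrx and Daxx were at -0.88 and -0.70, under the fold minimum. Of the 5 genes for chaperones of replication-coupled H3, Nasp, a histone carrier, fell by 1.21 on the log2 scale, and Asf1b, a chaperone of dividing cells, fell by 1.03. No gene of that list rose past the fold minimum, and its median was -0.93.

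H2A.Z is placed at promoters by the SRCAP and p400 complexes, and its 2 genes moved apart. H2afz and H2afv encode proteins of 128 residues that are identical at 125 positions, and their coding sequences of 384 bases differ at 80. The beginnings of these sequences, from GENCODE transcripts, show how closely related genes were counted apart, with the 13 differing bases of the 60 shown in capitals.
H2afz: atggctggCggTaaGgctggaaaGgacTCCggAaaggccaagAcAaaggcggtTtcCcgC
H2afv: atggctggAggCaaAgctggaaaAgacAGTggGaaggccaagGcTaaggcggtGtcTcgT

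H2afz, on chromosome 3 (137864487 to 137866922, plus strand), had 15406 and 16151 normalized counts in Undiff and 13864 and 12396 in Day4. H2afv, on chromosome 11 (6427229 to 6444443, minus strand), had 4487 and 4319 in Undiff and 8816 and 9117 in Day4. Neither gene overlapped between the states, and they lay in opposite directions. The log2 fold change of H2afz was -0.27 ± 0.05 (edgeR, adjusted p = 0.000354), a drop under the fold minimum. H2afv rose by 1.03 ± 0.04 (edgeR, adjusted p = 8.33e-11). Its call as a DEG rests on the fold minimum, since it was 0.99 with DESeq2, 1.00 without Undiff replicate 2 and 0.97 without Day4 replicate 2, each under 1 before rounding, with the adjusted p-value still passed.

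H2afz made up 77.4% and 78.9% of the counts of the pair in Undiff and 61.1% and 57.6% in Day4. The difference was -18.8 percentage points (two-sided exact permutation p = 0.333, the smallest possible). Summed over both genes, the level was 527 ± 8.81 CPM (SD, n = 2) in Undiff and 604 ± 24.1 in Day4. This is a 1.15-fold difference that was 1.09-fold after TMM scaling. Over the H2afz transcript, 58.8% of 100-base stretches (570 of 970) also lie in a transcript of Tmcc1, another gene, and 288 also lie in the pseudogene Gm8203. The authors kept uniquely aligned fragments, so the level of H2afz may be counted low in both states, and H2afv had no such stretch.

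Promoters of this pair are shown because the genes changed apart while encoding nearly the same protein. The sequences are from RefSeq on GRCm38.p6, 300 bases each around the start of transcription, at chr3:137864237-137864536 on the plus strand for H2afz and chr11:6444394-6444693 on the minus strand for H2afv. Capitals mark matches to the motif CCAAT on either strand. In H2afv they also mark a match on the other strand to TTTGAA. This is a form of the CHR motif, which is known from cell cycle genes.
H2afz promoter: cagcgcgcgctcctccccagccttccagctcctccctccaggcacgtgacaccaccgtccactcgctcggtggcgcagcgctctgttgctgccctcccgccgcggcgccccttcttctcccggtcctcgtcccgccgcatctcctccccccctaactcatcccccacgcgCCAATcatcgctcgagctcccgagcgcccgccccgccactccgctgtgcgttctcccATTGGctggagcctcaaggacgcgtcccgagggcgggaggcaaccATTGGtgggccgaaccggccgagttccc
H2afv promoter: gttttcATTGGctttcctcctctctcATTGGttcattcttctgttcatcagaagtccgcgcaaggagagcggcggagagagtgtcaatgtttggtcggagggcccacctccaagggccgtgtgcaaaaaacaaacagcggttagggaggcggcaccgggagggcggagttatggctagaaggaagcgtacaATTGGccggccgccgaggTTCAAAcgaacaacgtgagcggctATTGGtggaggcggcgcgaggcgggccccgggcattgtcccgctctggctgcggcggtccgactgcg

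CCAAT had 3 matches in the H2afz promoter and 4 in that of H2afv, and its part in their changes was not tested. Of the 9 variant genes with a promoter in the RefSeq table, 6 held CCAAT, beside 37.4% of all 32851 promoters. The H3f3b promoter held 4 copies, Cenpa 2, and H3f3a and H2afy2 1 each. The H3f3b promoter also held TATAAA, found in 13.6% of all promoters, and the H3f3a promoter held AAACACA, the H1 box of linker histone genes, found in 7.18%. The E2F motif (TTTCCCGC, TTTGGCGC, TTTCGCGC or TTTGCCGC) was in none of the 9 and in 2.26% of all promoters. A match of letters is a description and shows no binding. All motifs were searched on both strands, and no matches to different motifs overlapped in the 9 promoters.

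Of the 12 genes for H2A.Z exchange, 1 rose, 1 fell and 9 passed the adjusted p-value alone, with a median log2 fold change of 0.11. Among all genes tested, 22.2% were called higher and 20.6% lower, and 75.6% passed the adjusted p-value at any fold change. Vps72, whose protein holds H2A.Z in the SRCAP and TIP60 complexes, rose by 1.16 ± 0.06 (edgeR, adjusted p = 1.15e-09). Ino80, the ATPase of a complex that acts on H2A.Z nucleosomes, fell by 1.33 on the log2 scale.

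H2afx, on chromosome 9 (44334694 to 44336077, plus strand), encodes H2A.X, whose phosphorylated form marks DNA breaks. It had 3620 and 3708 normalized counts in Undiff and 3709 and 3677 in Day4. These ranges overlapped. The log2 fold change was 0.01 ± 0.05, with a 95% interval from -0.09 to 0.11 (edgeR, adjusted p = 0.824). Under TMM scaling and for the RNA counted, this interval excludes a change as large as that of any of the other 9 genes. With library totals in place of TMM, the log2 fold change of H2afx was 0.08. The part of RNA selection in its level was not tested. H2afx shares 1.40% of its 100-base stretches (18 of 1285) with genes elsewhere in the genome, mostly replication-dependent H2A genes.

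Genes of the H2A.X response mostly fell where they were called. Of 12, 5 fell, 1 rose and 5 passed the adjusted p-value alone, and the median log2 fold change was -0.99. The shares over all genes tested were 20.6% lower, 22.2% higher and 75.6% passing the adjusted p-value at any fold change. Rad50, a subunit of the complex that senses DNA ends, fell by 1.90, and Prkdc, a kinase of H2A.X, fell by 1.42 on the log2 scale. Rnf8, a ubiquitin ligase recruited to marked breaks, rose by 1.33 ± 0.15 (edgeR, adjusted p = 1.85e-06), from 90.7 and 81.4 normalized counts to 234 and 204.

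The largest rise among the 10 genes was in H2afy2. MacroH2A proteins carry a large domain beyond the histone fold and are known in silent chromatin, including the inactive X chromosome. The proteins of H2afy and H2afy2 have 372 residues each in the transcripts compared, of which 249 are identical. H2afy2, on chromosome 10 (61738665 to 61784147, minus strand), had 521 and 432 normalized counts in Undiff and 7143 and 7334 in Day4. H2afy, on chromosome 13 (56073619 to 56136361, minus strand), had 4082 and 3618 in Undiff and 9236 and 9687 in Day4. Both rose in each Day4 library, but H2afy2 started far lower and came close to H2afy.

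H2afy2 rose by a log2 fold change of 3.92 ± 0.07 (edgeR, adjusted p = 1.89e-14), which is 15.1-fold. H2afy rose by 1.30 ± 0.06 (edgeR, adjusted p = 8.69e-11), which is 2.46-fold. The share of H2afy2 in the counts of the pair went from 11.3% and 10.7% to 43.6% and 43.1%, a difference of 32.4 percentage points (two-sided exact permutation p = 0.333, the smallest possible). The pair together rose from 113 ± 10.6 to 457 ± 11.2 CPM (SD, n = 2), which is 4.04-fold, and 3.86-fold after TMM scaling. Gene counts do not separate the splice forms of H2afy. H2afy2 overlaps Aifm2 on the opposite strand, and this gene rose too, by 1.56 on the log2 scale, from 380 and 366 normalized counts to 1097 and 1108. The overlap covers 6.55% of the 100-base stretches of H2afy2, the methods do not name the strand option for TruSeq gene counts, and the part of Aifm2 in the rise was not tested.

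Per kilobase of the longest RefSeq-linked transcript, the 5 H2A variant genes can be set beside each other. Their summed level was 580 ± 5.17 CPM per kb (SD, n = 2) in Undiff and 776 ± 19.5 in Day4. The H2A.Z genes made up 78.6% of it in Undiff and 62.6% in Day4, and the macroH2A genes 9.47% and 28.0%. H2afx, whose own level did not pass the test, made up 11.9% and 9.40%. None of these shares overlapped between the states (exact permutation p = 0.333 for each, the smallest possible). Their sizes depend on the transcript length used. With the shortest coding transcript, H2afz stood at 942 CPM per kb in Undiff and 821 in Day4, and H2afv at 221 and 472. H2afy was then at 52.0 and 134, and H2afx and H2afy2 kept their levels. By that length the H2A.Z share is larger and the macroH2A share smaller in both states.

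**Figure D4:**
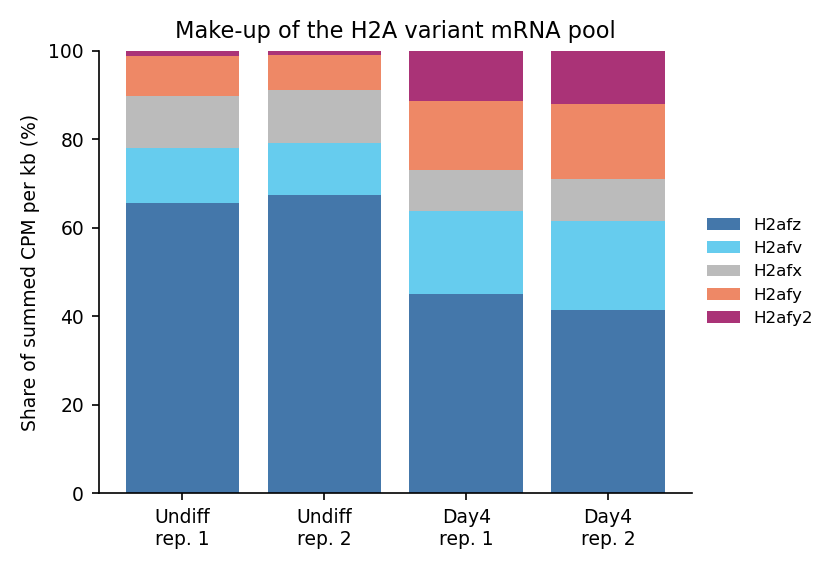
Share (%) of each of the 5 H2A variant genes in their summed CPM per kilobase of the longest RefSeq-linked transcript, in each library. H2afz narrows from 65.5% and 67.4% in Undiff to 45.0% and 41.5% in Day4, and H2afy2 widens from 1.09% and 0.887% to 11.4% and 12.1%.

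Linker histones bind the DNA that enters and leaves the nucleosome, and H1.0, the product of H1f0, is known to build up in cells that leave division. H1f0, a gene of 1 exon on chromosome 15 (79028450 to 79030504, plus strand), had 2186 and 2010 normalized counts in Undiff and 11108 and 11160 in Day4. H1fx, also of 1 exon, on chromosome 6 (87980421 to 87981637, minus strand), had 264 and 269 in Undiff and 1309 and 1120 in Day4. Both genes were several-fold higher in each Day4 library, with no overlap. H1f0 rose by a log2 fold change of 2.41 ± 0.05 (edgeR, adjusted p = 7.01e-14) and H1fx by 2.18 ± 0.10 (edgeR, adjusted p = 1.04e-10). Together they rose from 61.7 ± 3.36 to 338 ± 3.50 CPM (SD, n = 2), which is 5.47-fold, and 5.22-fold after TMM scaling. The share of H1f0 in the pair's counts was 89.2% and 88.2% in Undiff and 89.5% and 90.9% in Day4.

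H1fx overlaps the antisense gene Gm5577, which fell from 99.0 and 94.5 normalized counts to 41.8 and 45.3. The overlap covers 10.2% of the 100-base stretches of H1fx. The strand option for TruSeq gene counts is not named, and the part of this overlap in the counts of H1fx was not tested. Among the 5 replication-dependent H1 genes, Hist1h1c rose by 2.49 ± 0.19 (edgeR, adjusted p = 4.66e-08), from 53.1 and 50.3 normalized counts to 338 and 253. Hist1h1a fell by 1.87 on the log2 scale, from 49.0 and 34.7 to 11.5 in both Day4 libraries, and the other 3 were not called. These genes stood at low counts in all 4 libraries, and their mRNAs mostly lack a poly(A) tail. The methods name a kit that selects poly(A) RNA while the labels also name one that does not, and the part of RNA selection in these levels was not tested. H1f0 had 41.1 and 40.0 counts for each count of Hist1h1c in Undiff and 32.8 and 44.0 in Day4, so the states overlapped in this ratio.

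Cenpa had the largest drop of the 10 genes. CENP-A replaces H3 at centromeres, where it marks the site of the kinetochore, and its gene is known to peak before mitosis. Cenpa, on chromosome 5 (30666777 to 30674830, plus strand), had 4726 and 4709 normalized counts in Undiff and 2723 and 2835 in Day4. The states did not overlap, and the replicates of each state lay close together. The log2 fold change was -0.76 ± 0.05 (edgeR, adjusted p = 3.28e-09), which passed the adjusted p-value and not the fold minimum. The promoter of Cenpa is shown because CHR matches were found only there and in H2afv among the 9. The CHR motif was searched as TTTGAA on both strands and as its form with A in place of G, and 27.6% of all promoters hold it. It lies at chr5:30666636-30666935 on the plus strand (GRCm38.p6, RefSeq), and capitals mark its 2 CHR matches and 2 CCAAT matches.
Cenpa promoter: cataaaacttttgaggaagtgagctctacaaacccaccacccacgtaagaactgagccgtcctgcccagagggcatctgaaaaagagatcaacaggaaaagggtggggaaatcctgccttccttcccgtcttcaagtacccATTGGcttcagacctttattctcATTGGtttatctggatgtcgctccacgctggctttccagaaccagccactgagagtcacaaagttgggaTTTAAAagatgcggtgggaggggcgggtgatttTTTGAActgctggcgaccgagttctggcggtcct

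Of the 19 genes for its loading and for the centromere, 6 fell, 0 rose and 10 passed the adjusted p-value alone, with a median log2 fold change of -0.79. The other 3 did not pass the test. Over all genes tested, 20.6% were called lower and 22.2% higher, and 75.6% passed the adjusted p-value at any fold change. Apitd1, which encodes the centromere protein CENP-S, fell by 2.41 on the log2 scale, from 926 and 925 normalized counts to 175 and 174. Hjurp, the chaperone that carries CENP-A, was at -0.79, under the fold minimum.

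Markers of replication and mitosis moved with Cenpa. Of 19, 7 fell past the fold minimum and the other 12 passed the adjusted p-value alone, and their median was -0.95. Among all genes tested, 20.6% were called lower and 75.6% passed the adjusted p-value at any fold change. Ccnb1, the mitotic cyclin B1, fell by 1.69 and Bub1, a spindle checkpoint kinase, by 1.42 on the log2 scale. The summed level of all 19 markers was 7497 and 7285 CPM in Undiff and 3793 and 3942 CPM in Day4. Cenpa stood at 1.65% and 1.68% of that sum in Undiff and at 1.97% and 1.96% in Day4, a 1.18-fold difference. The part of fewer dividing cells in the level of Cenpa was not tested. The 3 genes nearest to Cenpa across the 4 libraries, among 121 genes of the fixed lists, were Cenph, Ccna2 and Mki67, at distances of 0.052, 0.060 and 0.061 on the centred log2 CPM scale. For H2afy2, Tie1 and Fap were nearest, at 0.139 and 0.213, where a pseudocount of 0.1 CPM narrows the differences of genes with low counts.

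**Figure D5:**
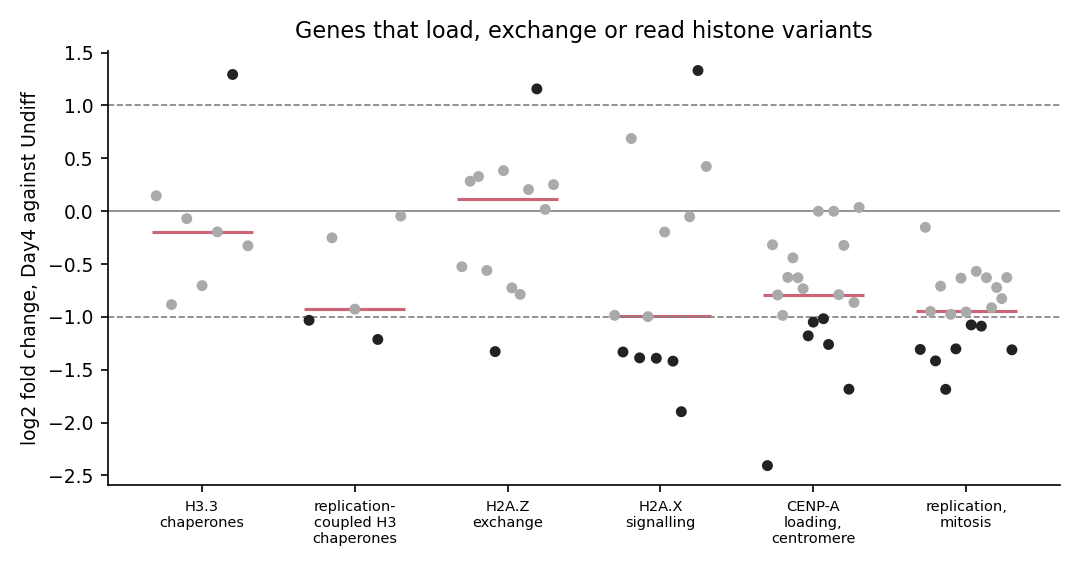
log2 fold change of Day4 against Undiff for each gene of 6 lists fixed for the histone variants and for replication and mitosis, with DEGs in black, other genes in grey, a red line at the median of the list and dashed lines at the fold minimum of 1. No gene for CENP-A loading and the centromere or for replication and mitosis lies above the upper dashed line.

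The order of the variant genes by level per length differed between the states. By mean CPM per kb of the longest RefSeq-linked transcript, the order in Undiff ran from H2afz at 385 through H3f3b at 338, H3f3a at 114, Cenpa at 84.0, H2afv at 70.4, H2afx at 69.1, H2afy at 49.1 and H1f0 at 26.7 to H2afy2 at 5.72 and H1fx at 5.71. The ranges of H2afv and H2afx overlapped there, as did those of H2afy2 and H1fx. In Day4 it ran from H3f3b at 740 through H2afz at 336, H3f3a at 247, H2afv at 150, H1f0 at 148, H2afy at 126, H2afy2 at 91.0, H2afx at 72.9 and Cenpa at 51.8 to H1fx at 27.3. Only H2afv and H1f0 overlapped there. Cenpa went from rank 4 to rank 9, and H1f0 from rank 8 to rank 5. Relative to the H3.3 genes, Cenpa stood at 18.6% of their summed CPM per kb in Undiff and at 5.25% in Day4. These levels rest on the transcript length. With the shortest coding transcript of each gene, Cenpa was at rank 3 in Undiff and at rank 5 in Day4, and H3f3a, of 724 bases in place of 2841, came at rank 2 and rank 1. H3f3a also shares 7.73% of its 100-base stretches with 13 processed pseudogenes elsewhere in the genome, and fragments from there may be missing from its counts.

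The 10 genes together took 1917 ± 13.6 CPM (SD, n = 2) in Undiff and 3753 ± 71.3 in Day4, which is 1.96-fold, and H3f3a and H3f3b made up the largest part of both.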

How the data were processed

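Illumina TruSeq libraries of R1 ESCs were analysed, 2 for each state. After trimming with cutadapt, the authors mapped reads by STAR 2.4.2a against mm10 and counted uniquely aligned fragments per gene with htseq-count. The deposited values are raw counts per gene symbol. Fragments on no gene (7.50% to 13.2%) or on more than 1 (1.84% to 1.91%) were left out of library sizes. The methods say that counting took strandedness into account and name only Direct RNA as strand-specific, so the strand option for TruSeq gene counts is not given in the sources used here.

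Groups came from the sample titles. TMM-scaled counts entered the quasi-likelihood test of edgeR 4.0.16 (glmQLFit, glmQLFTest) in R 4.3.3, with Benjamini-Hochberg adjustment over all 19891 genes with a count. DEG thresholds are those of the study. SE is the size of the log2 fold change divided by the square root of F. Shares were compared by exact permutation (scipy 1.17.1). The edgeR test was checked on simulated counts and the permutation test on set values. The replicates of each state differed by more than sampling noise (chi-square per degree of freedom of 5.71 in Undiff and 3.07 in Day4). Counts of 3 or fewer were treated as the floor (0.0629 to 0.0935 CPM), which no variant gene reached. Positions and lengths came from GENCODE on GRCm38, the build of mm10, and promoters from RefSeq.

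The 10 genes and all lists were chosen with earlier results of these data known. Named from each list other than the cell type markers were the 2 DEGs with the largest absolute log2 fold change and any DEG against the majority, and for the largest rise and the largest drop among the variant genes the 3 nearest list genes. Of the genes so named, 2 are not reported here. Hira, Atrx, Daxx, Hjurp and the markers against the majority of their list were named outside this rule, after their values were seen. Alternatives were DESeq2 1.42.0, other scalings, filters and thinning, a replicate block, each library left out, and a legacy edgeR fit added after the data were seen. Long-read libraries were not analysed here.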

Additional observations from a re-analysis of the deposited data

How the results depend on the processing

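Over 24 results, 239 alternative values were computed, of which 218 were taken as unchanged. For single genes, these kept their direction and their side of the threshold, and for shares and sums they stayed within the spread. Counts of genes stayed within a fixed ratio of the main count. H2afx, which was not called, changed sign to -0.0262 with DESeq2 with the study's settings and without shrinkage, to -0.0261 with DESeq2 size factors, to -0.0195 with the expression filter of edgeR and to -0.0155 with thinned counts, and without 1 library it ranged from -0.0123 to 0.0285. The share of H3f3b in its pair changed sign without 1 library, with differences from -0.333 to 0.740 percentage points. H2afv fell under the fold minimum at 0.99 with DESeq2 (both settings) and with DESeq2 size factors, and at 0.995 with the expression filter. The adjusted p-value was passed in each of these fits. Without 1 library, the value of H2afv ranged from 0.97 to 1.05, on both sides of the minimum. With no minimum fold change, 2 variant genes were called lower. TMM scaling gave log2 ratios of 1.06 for the summed H3.3 genes and 0.13 for the summed H2A.Z genes. Counts per kilobase gave 0.0928 for the latter, -15.5 percentage points for the share of H2afz and 31.4 for that of H2afy2. With the replicate number as a block, 8515 DEGs were called, beside 8521 without it, and no call of a variant gene changed. The replicate numbers do not pair the samples (correlation of -0.015 between the states' replicate differences). Without 1 library, 8306 to 8410 DEGs were called. With library totals in place of TMM, the median log2 fold change over genes past the minimum count was 0.10 in place of 0.03. With 2 libraries per state, permutation tests could not go below 0.333.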
